A study of Mus musculus with 8 samples.

Results

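The 35 genes described here encode the proteins that take glucose into the cell, break it down to pyruvate and lactate, move lactate across the membrane and divert glucose 6-phosphate into the pentose phosphate pathway. The names were chosen with earlier results of these data known. The genes were then taken as the protein-coding rows of the deposited count table that carry one of the 35 names, a rule that uses no measured value. This gave 36 of the table's 56748 rows, because Aldoa is listed on a pair of rows, one of them nearly empty, at 0 to 4 counts in each library, and not tested. All 35 genes passed the filter on low counts, as did 13960 genes of the whole table.

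The libraries hold polyadenylated RNA of primary cardiac fibroblasts, isolated from wild-type C57BL/6J mice at 1 day of age and cultured. TGF-β1, the cytokine that turns fibroblasts into matrix-producing myofibroblasts, was given at 10 ng/mL for 48 h in 4 cultures, and 4 cultures were left untreated. Both groups were isolated by collagenase digestion and brief plating, which removes most but not all other cells, and grown in DMEM with fetal bovine serum. The series design states that the replicates came from different litters. The number of hearts per culture is not stated in the labels.

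Glycolysis splits glucose into pyruvate, and in cultured fibroblasts much of that pyruvate is reduced to lactate and exported together with a proton. Most steps are run by several isozymes from separate genes, which differ in kinetics and in the tissues that favour them. The pentose phosphate pathway branches off at glucose 6-phosphate and yields NADPH and ribose 5-phosphate. Myofibroblast activation has been tied to increased glycolysis in several organs, and the transcription factor HIF-1 is the best-known common activator of these genes.

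Library totals were 14597778 to 17176898 counts with TGF-β1 and 14340740 to 16373798 in untreated cultures. The 35 genes took 0.565% to 0.614% of all counts with TGF-β1 and 0.578% to 0.591% in untreated cultures. Untreated library 1 stood apart in ribosomal RNA, which took 0.0332% of its counts, against 1.09% to 2.56% with TGF-β1 and 2.13% to 2.49% in the other untreated libraries. Of 12 fibroblast markers, all were detected, and 3 rose and 7 fell with TGF-β1. Their summed level was nevertheless higher, at 26914 to 28407 CPM with TGF-β1, against 23240 to 25087 CPM in untreated cultures. Markers of other cells also moved with the treatment. Of 18 cardiomyocyte markers, 15 fell and none rose, and their summed level was 887 to 961 CPM with TGF-β1, against 1255 to 1351 CPM in untreated cultures. All 10 cell division genes fell, to a summed 55.1 to 71.4 CPM with TGF-β1, against 353 to 378 CPM in untreated cultures. Of 8 erythroid markers, 5 were at 0 in every library. Smaller lists were split: 2 of 8 tested endothelial markers rose and 2 fell, 3 of 6 mural markers rose and 2 fell, and 1 of 9 macrophage markers rose and 2 fell. The summed mural level was 1183 to 1280 CPM with TGF-β1, against 1086 to 1122 CPM in untreated cultures. The endothelial and macrophage sums overlapped between the groups. The part of these shifts in the values of the 35 genes was not tested. In such bulk samples, fewer cells of a type and less RNA per cell cannot be told apart.

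Among the well-counted genes, the largest changes after TGF-β1 were in the 2 lactate transporters, in opposite directions. Slc16a1 fell 1.96-fold and Slc16a3 rose 1.53-fold. Hexokinase 2 (Hk2) rose 1.47-fold and the glucose transporter Slc2a3 fell 1.36-fold. The abundant enzymes of the glycolytic trunk moved little: Gpi1, Aldoa, Pgk1, Pgam1 and Eno1 rose 1.08-fold to 1.17-fold, and Pkm, Ldha and Tpi1 did not pass the test. Pfkp, Aldoc, Eno3, Ldhb and the kinase Pdk3 fell.

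By edgeR's quasi-likelihood test with Benjamini-Hochberg adjustment over all 13960 genes, 17 of the 35 genes (48.6%) passed an adjusted p of 0.05, beside 36% of all genes tested. Of these, 10 (28.6%) were higher with TGF-β1, beside 17.6% of all genes, and 7 (20%) were lower, beside 18.5%. Of the 18 at a mean of 50 CPM or more, 8 were called (44.4%), beside 50.1% of all genes at that level, and of the 17 under 50 CPM, 9 were called (52.9%), beside 30% of all genes at that level. The CPM ranges of the groups did not overlap for 14 genes (40%), beside 33.9% of all genes. The median log2 fold change was 0.02 over the 35 genes and 0.01 over all genes tested. The share called was above the background over all levels and among the genes under 50 CPM, and slightly below it among the abundant genes. The split at 50 CPM depends on where single genes fall. The Gapdh row counts as a call under 50 CPM, but summed with its copies, described below, it was at 596 CPM with TGF-β1 and 504 CPM in untreated cultures. Hk2, at 57.7 CPM with TGF-β1 and 39.2 CPM in untreated cultures, lay just under the bound by its mean. These differences in share were not tested.

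The count of raised genes depended on the scaling and on single libraries. It was 6 with upper-quartile factors and 4 with library totals, where 7 and 11 were lower. With library totals, the higher calls made up 26.7% of the calls among these genes and 26.2% among all genes, and with the TMM factors used here 58.8% and 48.7%. The count of raised genes was also 6 when TGF-β1 library 2 or 3, or untreated library 1, 2 or 4, was left out. The lower calls stayed at 6 or 7 in every such repeat.

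**Figure D1:**
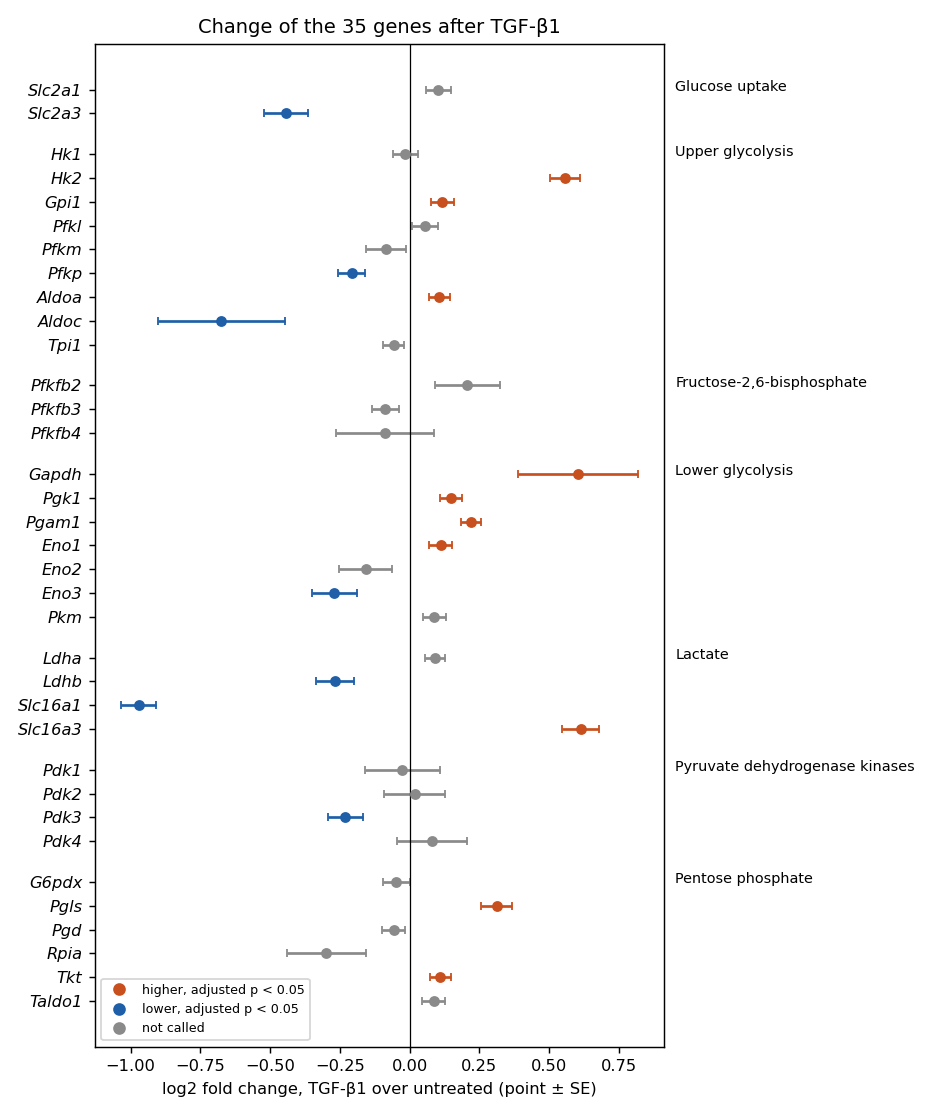
Change of each of the 35 genes after TGF-β1, as log2 fold change over untreated on the x axis (point ± standard error, 4 libraries in each group), grouped by role. Orange points are called higher, blue points lower and grey points not called. Slc16a1 at -0.97 and Slc16a3 at 0.61 stand farthest out among the well-measured genes, while most trunk enzymes lie close to 0.

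Lactate leaves and enters cells through proton-coupled monocarboxylate transporters. Slc16a1 encodes MCT1, a carrier with high affinity that works in both directions, and Slc16a3 encodes MCT4, a carrier typical of cells that export much lactate. Slc16a1 (chr3:104545984-104565778, plus strand, coordinates of the count table read as GRCm39) stood at 24.7, 25.6, 28.0 and 28.7 CPM in the TGF-β1 libraries, against 52.3, 48.7, 52.9 and 56.3 CPM in the untreated libraries. Here CPM is the count over the TMM-scaled library total. Every TGF-β1 library was far below every untreated one. The mean was 26.8 ± 1.92 CPM with TGF-β1 and 52.5 ± 3.12 CPM in untreated cultures (SD, n = 4 each), a log2 fold change of -0.97 ± 0.06 (SE, adjusted p = 3.6e-11). Slc16a3 (chr11:120839306-120851694, plus strand) stood at 47.3, 45.1, 42.9 and 43.7 CPM with TGF-β1, against 28.1, 33.2, 27.8 and 28.0 CPM in untreated libraries. Untreated library 2 was the highest of its group and still lay below all TGF-β1 libraries. The means were 44.7 ± 1.95 CPM with TGF-β1 and 29.3 ± 2.65 CPM in untreated cultures (SD, n = 4 each), and the log2 fold change was 0.61 ± 0.07 (SE, adjusted p = 9.64e-08).

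The order of the pair differed between the groups. Levels of different genes are compared here as FPKM, the count per gene length that the authors deposited. Slc16a3 took 61.5%, 59.4%, 56.0% and 55.9% of the summed FPKM of the pair in the TGF-β1 libraries, against 30.9%, 36.2%, 30.4% and 29.3% in the untreated libraries. The difference was 26.5 percentage points, with an exact two-sided permutation p of 0.0286, the smallest that the 70 assignments of 4 against 4 libraries can give, and 0.0429 after adjustment over the 9 isozyme shares compared. With any untreated library left out the adjusted p was 0.0514, at differences of 25.4 to 28.0 percentage points over all libraries left out in turn. Per length of the canonical transcript, in place of the length in the file, the share was 62.1% with TGF-β1 and 35.3% in untreated cultures. The summed FPKM of the pair was 14.2 ± 0.17 with TGF-β1 and 17.1 ± 0.44 in untreated cultures (SD, n = 4 each). The span of Slc16a3 overlaps that of Csnk1d on the other strand over 1879 bases. In GENCODE M39, 44.1% of its exonic bases lie under exons of the other strand, chiefly those of Csnk1d. For its canonical transcript the figure is 52.4%. Whether counting took strand into account is not stated in the labels, and the part of such reads in the Slc16a3 values was not tested. Csnk1d itself was at 176 CPM with TGF-β1 and 173 CPM in untreated cultures (log2 fold change 0.02 ± 0.04 SE, adjusted p = 0.718).

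Lactate dehydrogenase interconverts pyruvate and lactate, with Ldha encoding the muscle-type and Ldhb the heart-type subunit. Ldhb was at 22, 21.7, 21.1 and 21.6 CPM with TGF-β1, against 25.6, 25.6, 28.0 and 24.8 CPM in untreated libraries, without overlap. Its log2 fold change was -0.27 ± 0.07 (SE, adjusted p = 0.00359). Ldha was at 686, 730, 705 and 706 CPM with TGF-β1 and 627, 664, 694 and 669 CPM in untreated libraries. The ranges overlapped, and its log2 fold change of 0.09 ± 0.04 (SE) did not pass the test (adjusted p = 0.0586). It did pass with DESeq2, with the replicate number as a block (adjusted p = 0.0464), without ribosomal RNA, and without TGF-β1 library 1 or untreated library 3, at log2 fold changes of 0.09 to 0.11; over all alternatives the adjusted p ran from 0.0323 to 0.848. Ldha took 93.9% ± 0.20 of the summed FPKM of both with TGF-β1 and 92.4% ± 0.31 in untreated cultures (SD, n = 4 each; exact permutation p = 0.0286, adjusted 0.0429).

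**Figure D2:**
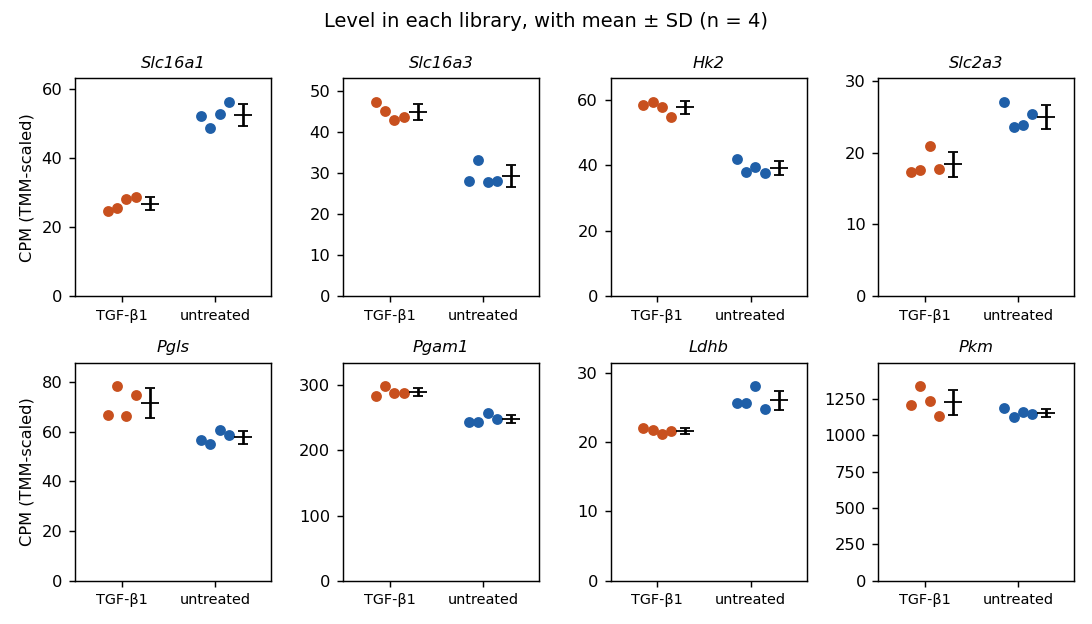
CPM of 8 of the genes in each library (y axis, TMM-scaled, starting at 0), TGF-β1 left in orange and untreated right in blue, with the mean and SD of the 4 libraries beside the points. The groups are apart for Slc16a1, Slc16a3, Hk2, Slc2a3, Pgls, Pgam1 and Ldhb, and overlap for Pkm.

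Glucose enters fibroblasts mainly through GLUT1, encoded by Slc2a1, and through the high-affinity GLUT3, encoded by Slc2a3. Slc2a1 was at 80.4, 87.0, 85.0 and 84.3 CPM with TGF-β1 and 82.2, 75.5, 79.9 and 76.3 CPM in untreated libraries. One untreated library lay within the TGF-β1 range, and the log2 fold change of 0.10 ± 0.04 (SE) did not pass the test (adjusted p = 0.0814). Slc2a3 was at 17.3, 17.6, 20.9 and 17.7 CPM with TGF-β1, against 27.1, 23.6, 23.8 and 25.3 CPM in untreated libraries. TGF-β1 library 3 was the nearest to the untreated group but did not reach it, and the log2 fold change was -0.44 ± 0.08 (SE, adjusted p = 1.14e-04). Slc2a1 took 90.5% ± 0.75 of the summed FPKM of both with TGF-β1 and 86.7% ± 0.58 in untreated cultures (SD, n = 4 each; exact permutation p = 0.0286, adjusted 0.0429).

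Hexokinases trap glucose by phosphorylating it. Hk1 is the form found in most tissues, and Hk2 is the form of muscle, growing and transformed cells that is often inducible. Hk2 (chr6:82702006-82751435, minus strand) was at 58.5, 59.4, 57.9 and 54.9 CPM with TGF-β1, against 42.0, 37.8, 39.4 and 37.6 CPM in untreated libraries. The groups were well apart, at 57.7 ± 1.97 CPM with TGF-β1 and 39.2 ± 2.05 CPM in untreated cultures (SD, n = 4 each), and the log2 fold change was 0.56 ± 0.05 (SE, adjusted p = 2.42e-08). Hk1 was at 133 to 146 CPM with TGF-β1 and 132 to 147 CPM in untreated libraries (log2 fold change -0.01 ± 0.04 SE, adjusted p = 0.833). Hk2 thus took 37.1% ± 0.39 of the summed hexokinase FPKM with TGF-β1 and 28.4% ± 1.29 in untreated cultures (SD, n = 4 each; exact permutation p = 0.0286, adjusted 0.0429). Hk1 stayed the larger part in every library, and per length of the canonical transcripts the Hk2 share was only 18.5% with TGF-β1 and 13.2% in untreated cultures.

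The sequences upstream of Hk2, Slc16a1 and Slc16a3 are shown because these were the strongly changed genes of the pathway and the letters ACGTG, the core of the hypoxia response element, stand in each. They are the 250 bases before the start in the RefSeq promoter table (GRCm38.p6), written 5′ to 3′ on the strand of the gene, and capitals mark ACGTG on either strand (CACGT where it is on the other one). The Slc16a1 window is chr3:104638414-104638663, plus strand, the Slc16a3 window chr11:120948817-120949066, plus strand, and the Hk2 window chr6:82774455-82774704, minus strand.
Slc16a1: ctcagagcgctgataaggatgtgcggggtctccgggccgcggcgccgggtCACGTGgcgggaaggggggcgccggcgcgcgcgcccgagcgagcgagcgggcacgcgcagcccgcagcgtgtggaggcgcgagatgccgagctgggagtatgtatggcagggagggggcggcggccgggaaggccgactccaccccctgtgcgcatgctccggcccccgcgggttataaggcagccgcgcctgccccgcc
Slc16a3: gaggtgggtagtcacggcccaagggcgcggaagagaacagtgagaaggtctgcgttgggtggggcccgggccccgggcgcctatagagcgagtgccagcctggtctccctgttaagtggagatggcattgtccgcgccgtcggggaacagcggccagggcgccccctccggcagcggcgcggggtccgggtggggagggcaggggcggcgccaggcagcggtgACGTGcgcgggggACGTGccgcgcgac
Hk2: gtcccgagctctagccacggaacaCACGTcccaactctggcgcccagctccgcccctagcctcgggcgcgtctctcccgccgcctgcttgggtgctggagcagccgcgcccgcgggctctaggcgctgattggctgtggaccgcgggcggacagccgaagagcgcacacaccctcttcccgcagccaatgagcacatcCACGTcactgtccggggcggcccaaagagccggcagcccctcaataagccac

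In the bases shown for Slc16a1, the match is the palindrome CACGTG, the E-box, which contains ACGTG on both strands, and a further ACGTG stands in the 50 bases after the start. In Slc16a3 and Hk2 there are 2 separate ACGTG matches each and no CACGTG. The table's full windows run from 250 bases before to 50 after the start, and 34 of the 35 genes were found in it by symbol. ACGTG was in at least 1 window of 18 of these 34 genes (52.9%), beside 21.8% of all 27025 genes in the table. By window rather than gene it was in 22 of 51 (43.1%), beside 19.6% of all. Split by the test, ACGTG was in 6 of 10 genes that rose, 3 of 6 that fell and 9 of 18 that were not called. CACGTG was in 6 genes (17.6%), beside 8.09% of all, and 5 of these 6 were not called, and the SMAD palindrome GTCTAGAC was in none, beside 0.248% of all. ACGTG and CACGTG overlap, base composition was not matched, and a match describes letters only.

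The next steps turn glucose 6-phosphate into triose phosphates. Gpi1, the isomerase, was at 472, 466, 455 and 432 CPM with TGF-β1 and 403, 432, 446 and 402 CPM in untreated libraries, overlapping ranges with a log2 fold change of 0.12 ± 0.04 (SE, adjusted p = 0.0295). Phosphofructokinase, the committed step, is built from the liver (Pfkl), muscle (Pfkm) and platelet (Pfkp) subunits. Pfkp was at 56.6, 58.6, 54.7 and 55.5 CPM with TGF-β1, against 61.8, 67.5, 65.0 and 65.8 CPM in untreated libraries, and fell by 0.21 ± 0.05 on the log2 scale (SE, adjusted p = 0.00169). Pfkl (0.05 ± 0.05) and Pfkm (-0.09 ± 0.07) did not pass the test, with adjusted p of 0.397 and 0.382, and with library totals the sign of Pfkl turned to -0.03. The Pfkp share of the summed FPKM of all 3 was 15.9% ± 0.28 with TGF-β1 and 17.9% ± 0.84 in untreated cultures (SD, n = 4 each; exact permutation p = 0.0286, adjusted 0.0429). The file's length for Pfkp is 3.11 times that of its canonical transcript, and by canonical lengths the share was 31.0% with TGF-β1 and 34.5% in untreated cultures. The span of Pfkp overlaps that of Pitrm1 on the other strand over 748 bases. In GENCODE M39, 42.5% of its canonical transcript lies under exons of the other strand. Pitrm1 was at 79.4 CPM with TGF-β1 and 78.1 CPM in untreated cultures (log2 fold change 0.02 ± 0.05 SE, adjusted p = 0.751).

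Aldolase splits fructose 1,6-bisphosphate. Aldoa, the muscle and general form, was at 737, 806, 760 and 750 CPM with TGF-β1 and 676, 717, 746 and 697 CPM in untreated libraries (log2 fold change 0.11 ± 0.04 SE, adjusted p = 0.0351). Aldoc, the brain form, was barely present, at 1.41, 1.52, 2.81 and 2.03 CPM with TGF-β1, against 2.86, 3.38, 3.03 and 3.16 CPM in untreated libraries. TGF-β1 library 3 lay just under the lowest untreated library, and the log2 fold change was -0.67 ± 0.23 (SE, adjusted p = 0.0246). Aldoc made up 0.227% ± 0.08 of aldolase FPKM with TGF-β1 and 0.390% ± 0.03 in untreated cultures (SD, n = 4 each; exact permutation p = 0.0286, adjusted 0.0429). Tpi1, which interconverts the triose phosphates, did not pass the test (-0.06 ± 0.04, adjusted p = 0.259).

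Some of these calls rested on single libraries. The call of Aldoc was lost without TGF-β1 library 1 or 2 or untreated library 2 or 4, at log2 fold changes of -0.55 to -0.67. That of Aldoa was lost without TGF-β1 library 2 or 3 or untreated library 1, 2 or 4 (0.08 to 0.11), and that of Gpi1 without TGF-β1 library 1, 2 or 3 or untreated library 1 or 4 (0.09 to 0.12). Gpi1 and Aldoa also lost their calls with upper-quartile factors, with library totals and with limma on log2 FPKM.

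Fructose 2,6-bisphosphate, the strongest activator of phosphofructokinase, is made and removed by the PFKFB enzymes. None of the 3 genes passed the test. Pfkfb3 was the main form, at 54.1 to 57.6 CPM with TGF-β1 and 57.1 to 59.9 CPM in untreated libraries (log2 fold change -0.09 ± 0.05 SE, adjusted p = 0.172). Pfkfb2 was at 10.1 to 13.7 CPM with TGF-β1 and 8.89 to 11.2 CPM in untreated libraries (0.21 ± 0.12, adjusted p = 0.179), and Pfkfb4 at 3.32 to 5.01 CPM with TGF-β1 and 3.59 to 4.78 CPM in untreated libraries (-0.09 ± 0.18, adjusted p = 0.743). The Pfkfb3 share of the summed FPKM was 75.4% ± 2.52 with TGF-β1 and 77.6% ± 1.36 in untreated cultures (SD, n = 4 each), and the groups overlapped (exact permutation p = 0.171, adjusted 0.193).

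The lower part of the trunk recovers ATP from triose phosphate. Its first enzyme, glyceraldehyde-3-phosphate dehydrogenase, is encoded by Gapdh, one of the most abundant transcripts of most cells. In this table the Gapdh row held only 173, 83, 102 and 93 counts with TGF-β1 and 101, 60, 75 and 73 counts in untreated libraries. That is 7.67 ± 3.11 CPM with TGF-β1 and 5.02 ± 1.21 CPM in untreated cultures (SD, n = 4 each). Per length, the Gapdh row averaged 1.83 FPKM with TGF-β1 and 1.20 FPKM in untreated cultures, against 149 FPKM with TGF-β1 and 134 FPKM in untreated cultures for Pgk1, the next enzyme. TGF-β1 library 1 was the highest, the groups overlapped, and the log2 fold change was 0.60 ± 0.21 (SE, adjusted p = 0.0317). Without that library it was 0.29 (adjusted p = 0.231). The call was also lost without untreated library 2, 3 or 4, with library totals, with limma, and with DESeq2 (adjusted p = 0.137). Over the alternatives that kept the row's own counts, the adjusted p ran from 6.38e-04, without a count filter, to 0.231.

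Far more counts stood on copies of Gapdh elsewhere in the genome. Gm13394, a processed pseudogene of Gapdh on chr2:28823622-28824621 (minus strand), held 7805, 8553, 8008 and 8942 counts with TGF-β1 and 6960, 6705, 7934 and 7685 counts in untreated libraries. Aligned to the Gapdh coding sequence over 1000 bases, it differs at 1 position, A346C (counted from the first base of the start codon, Gapdh base first). The stretch around that position is shown because it holds the only base at which the aligned coding sequences differ. It is coding positions 322 to 375, within 1 coding exon of Gapdh at chr6:125139950-125140003 (GRCm39, minus strand) and at chr2:28824247-28824300 (minus strand) in Gm13394, with the differing base in capitals.
Gapdh: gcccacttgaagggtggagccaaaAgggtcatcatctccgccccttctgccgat
Gm13394: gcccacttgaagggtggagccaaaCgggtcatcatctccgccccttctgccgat

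A search of all transcripts found 167 rows at least 90% identical to Gapdh, over at least 300 bases and 50% of the length of the row, and together they held 65811 counts, against 760 on the Gapdh row, so that 98.9% of the combined counts lay on the copies. Which of these reads came from Gapdh mRNA cannot be read from a count table. Gm13394 was at 560 ± 24.4 CPM with TGF-β1 and 475 ± 40.5 CPM in untreated cultures (SD, n = 4 each; log2 fold change 0.24 ± 0.05 SE, adjusted p = 4.73e-04). Gm5559, the second most counted copy, also rose (0.31 ± 0.10, adjusted p = 0.0229). Gapdh summed with all its copies, an alternative chosen after seeing the data, was at 595, 626, 598 and 565 CPM with TGF-β1, against 493, 475, 564 and 486 CPM in untreated libraries. The lowest TGF-β1 library was level with the highest untreated one. The log2 fold change of the sum was 0.24 ± 0.05 (SE, adjusted p = 2.92e-04), below the 0.60 of the single row.

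Enolase shows the same division in a milder form. Eno1, the general form, had 40.7% of its combined counts on near-identical copies, chiefly the processed pseudogene Gm4735, which differs at 5 of 1302 aligned coding bases, and the protein-coding copy Eno1b. The Eno1 row was at 649, 706, 725 and 711 CPM with TGF-β1 and 605, 656, 674 and 650 CPM in untreated libraries (log2 fold change 0.11 ± 0.04 SE, adjusted p = 0.0388). Summed with its copies, the log2 fold change was 0.09 ± 0.04 (SE) and no longer passed the test (adjusted p = 0.0671). Gm4735 did not pass (0.01 ± 0.04, adjusted p = 0.847) and Eno1b rose (0.12 ± 0.04, adjusted p = 0.0324). The call of Eno1 was also lost without TGF-β1 library 2, 3 or 4 or untreated library 1, 2 or 4, at 0.07 to 0.12, and with upper-quartile factors, library totals and limma. For the other genes of this set, copies held at most 7.57% of the combined counts (Ldhb).

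**Figure D3:**
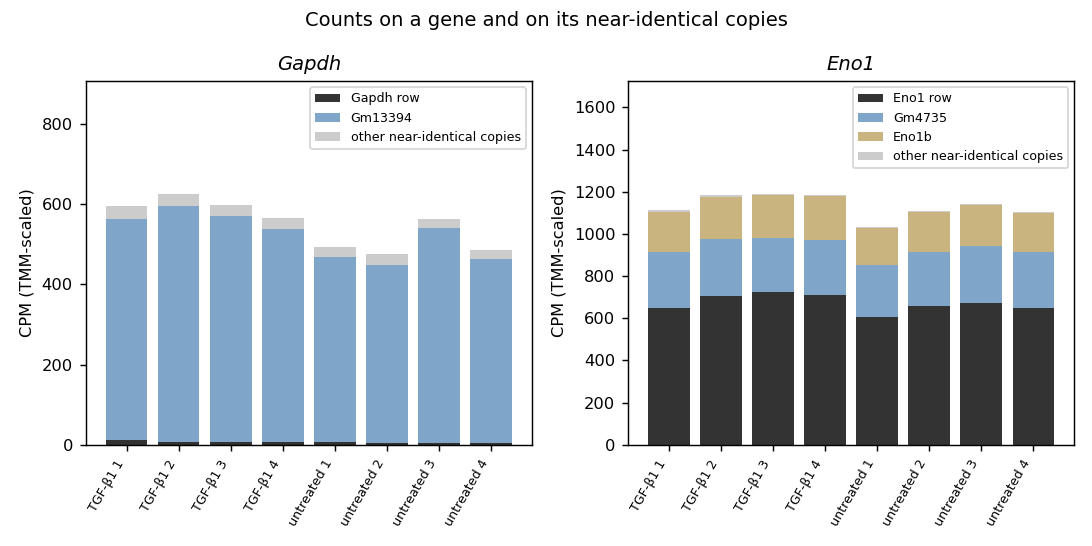
Level of Gapdh (left) and Eno1 (right) in each library, TGF-β1 before untreated, as stacked CPM (y axis, TMM-scaled) of the gene's own row, its main near-identical copies and all other copies. Almost all of the Gapdh bar lies on Gm13394, while the Eno1 row holds the larger part of its bar.

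Of the other enolases, Eno3, the muscle form, was at 26.8, 22.8, 24.1 and 26.7 CPM with TGF-β1, against 27.1, 28.2, 34.8 and 31.0 CPM in untreated libraries. The groups nearly touched without overlap, and the log2 fold change was -0.27 ± 0.08 (SE, adjusted p = 0.0116); without untreated library 3 it was -0.20 (adjusted p = 0.0595). Eno2, the neuronal form, did not pass the test (-0.16 ± 0.10, adjusted p = 0.214), nor did its share of enolase FPKM, at 1.71% ± 0.15 with TGF-β1 and 1.99% ± 0.11 in untreated cultures (SD, n = 4 each; exact permutation p = 0.0571, adjusted 0.0735). That share counts the Eno1 row without its copies. With near-identical copies summed, the difference was -0.17 percentage points, against -0.28 without them, and it was again not called. The fall of Eno3 stood beside the fall of 15 of 18 cardiomyocyte markers given above, and the part of those cells in it was not tested.

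In the lower trunk, the rises called in genes with few counts on copies were those of Pgam1 and Pgk1. Pgam1, the mutase between 3- and 2-phosphoglycerate, was at 283, 298, 288 and 287 CPM with TGF-β1, against 244, 243, 256 and 248 CPM in untreated libraries, clear of each other. Its log2 fold change was 0.22 ± 0.04 (SE, adjusted p = 3.67e-05). Pgk1, which makes the first ATP of the lower trunk, was at 319, 359, 346 and 334 CPM with TGF-β1, against 304, 313, 301 and 309 CPM in untreated libraries (0.15 ± 0.04, adjusted p = 0.00449), again without overlap. Its call was lost with library totals (0.07). Pkm, the pyruvate kinase and the most counted of the 35 genes, was at 1207, 1336, 1239 and 1130 CPM with TGF-β1 and 1190, 1127, 1158 and 1144 CPM in untreated libraries. The ranges overlapped and the log2 fold change of 0.09 ± 0.04 (SE) did not pass (adjusted p = 0.104). The rows do not separate its M1 and M2 splice forms.

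**Figure D4:**
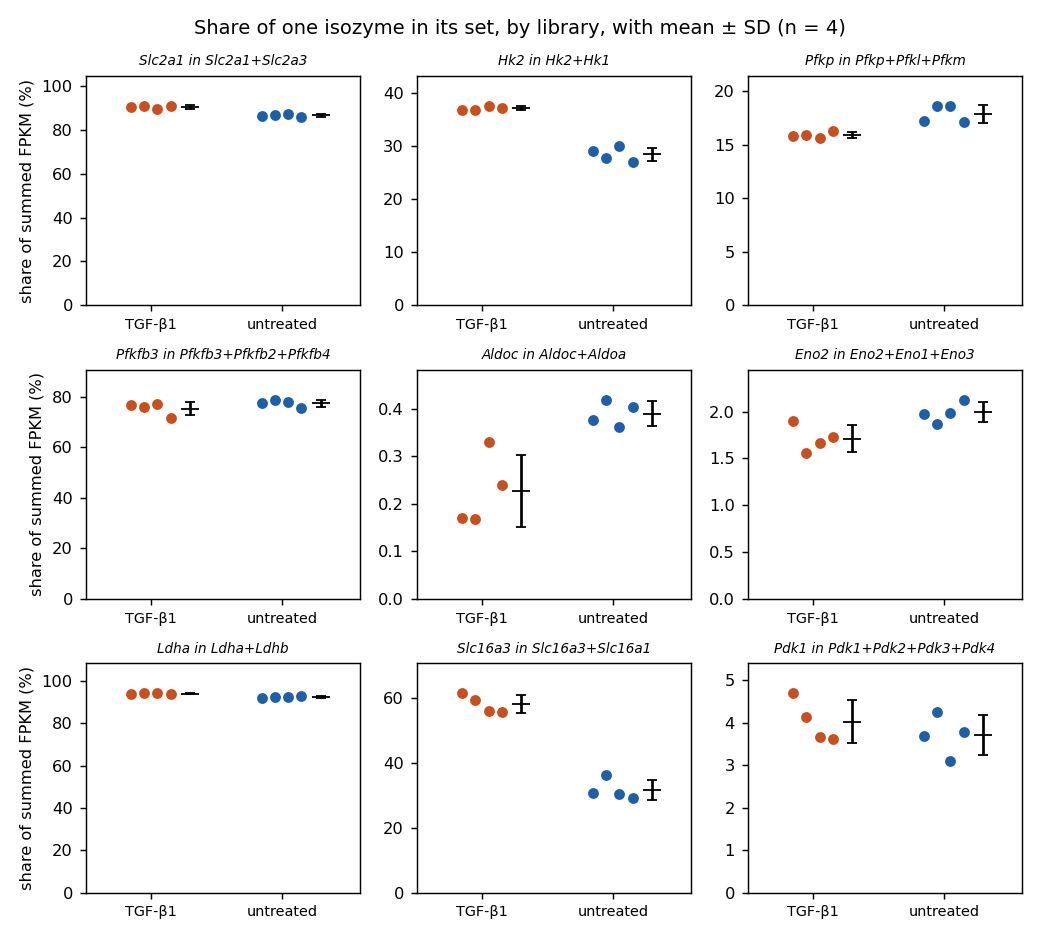
Share of one isozyme in the summed FPKM of its set (y axis, percent, starting at 0) in each library, TGF-β1 left in orange and untreated right in blue, with mean and SD of 4 libraries. Slc16a3, at 58.2% with TGF-β1 and 31.7% in untreated cultures, shows the widest gap, Hk2, at 37.1% with TGF-β1 and 28.4% in untreated cultures, the next, and the shares of Pfkfb3, Eno2 and Pdk1 overlap between the groups.

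Pyruvate dehydrogenase kinases block the entry of pyruvate into the citric acid cycle. Pdk3, an isoform of limited tissue range, was the main form here by FPKM, and it was at 34.9, 34.8, 35.7 and 37.6 CPM with TGF-β1, against 41.1, 38.3, 46.6 and 42.0 CPM in untreated libraries. It fell by 0.23 ± 0.06 on the log2 scale (SE, adjusted p = 0.00607), without overlap. The widely expressed Pdk2 (0.02 ± 0.11), the starvation-induced Pdk4 (0.08 ± 0.13) and Pdk1 (-0.03 ± 0.13), a classic HIF-1 target, did not pass, at adjusted p of 0.663 to 0.921. The signs of Pdk1 and Pdk2 turned when single libraries were left out. The Pdk1 share of the summed FPKM of the 4 kinases was 4.03% ± 0.50 with TGF-β1 and 3.70% ± 0.47 in untreated cultures (SD, n = 4 each; exact permutation p = 0.486).

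In the oxidative branch of the pentose phosphate pathway, 1 of 3 enzymes passed the test. Pgls, the lactonase between the dehydrogenases, was at 66.6, 78.1, 66.4 and 74.9 CPM with TGF-β1, against 56.5, 54.9, 60.7 and 58.5 CPM in untreated libraries, and rose by 0.31 ± 0.06 on the log2 scale (SE, adjusted p = 1.36e-04) without overlap. The span of Pgls shares 3445 bases with that of Niban3 on the same strand. Niban3 was at 3.27 CPM with TGF-β1 and 2.78 CPM in untreated cultures. G6pdx, the rate-limiting dehydrogenase, was at 53.9 to 59.5 CPM with TGF-β1 and 57.4 to 59.8 CPM in untreated libraries (-0.05 ± 0.05, adjusted p = 0.503). Its whole span lies within that of Ikbkg on the other strand, but only 8.13% of its exonic bases lie under exons of that strand. Pgd, the second NADPH-forming dehydrogenase, was at 100 to 108 CPM with TGF-β1 and 104 to 111 CPM in untreated libraries (-0.06 ± 0.04, adjusted p = 0.297).

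In the non-oxidative branch, Tkt, the transketolase, was at 181, 180, 179 and 171 CPM with TGF-β1, against 160, 164, 168 and 167 CPM in untreated libraries, a narrow gap with a log2 fold change of 0.11 ± 0.04 (SE, adjusted p = 0.0273). Its call was lost without TGF-β1 library 1, 2 or 3 or untreated library 1 or 2 (0.09 to 0.11), with upper-quartile factors and with library totals. Taldo1, the transaldolase, was at 134 to 146 CPM with TGF-β1 and 124 to 136 CPM in untreated libraries (0.09 ± 0.04, adjusted p = 0.114). Rpia, the ribose 5-phosphate isomerase, was at 5.22, 4.15, 5.35 and 4.83 CPM with TGF-β1, against 5.45, 6.30, 6.13 and 6.14 CPM in untreated libraries. The groups did not overlap, yet at this low count the log2 fold change of -0.30 ± 0.14 (SE) did not pass the test (adjusted p = 0.105).

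Levels of whole steps were summed over the isozymes of a step as FPKM. Aldolase was at 259 ± 10.2 FPKM with TGF-β1 and 240.5 ± 9.85 FPKM in untreated cultures, pyruvate kinase at 242 ± 17 FPKM with TGF-β1 and 227 ± 5.15 FPKM in untreated cultures, and lactate dehydrogenase at 224 ± 5.28 FPKM with TGF-β1 and 213 ± 8.56 FPKM in untreated cultures (SD, n = 4 each). The Gapdh and Eno1 steps were not ranked against these, since many of their counts stood on copies. Hexokinase was at 24.3 to 26.6 FPKM with TGF-β1 and 21.6 to 23.9 FPKM in untreated cultures. Glucose uptake was at 24.9 to 26.8 FPKM with TGF-β1 and 24.4 to 26.7 FPKM in untreated cultures. The order of hexokinase and uptake depended on gene length, which differs between the file and the canonical transcripts by up to 3.99 times (Pgls). Per kilobase of the canonical transcripts, an alternative chosen after seeing the data, hexokinase stood above uptake, at 38.0 to 41.6 with TGF-β1 and 35.8 to 39.8 in untreated cultures, against 22.5 to 24.4 with TGF-β1 and 22.9 to 25.3 in untreated cultures for uptake (TMM-scaled CPM per kilobase). The ratio of TGF-β1 to untreated cultures for summed hexokinase was 1.13 by the lengths in the file and 1.05 by the canonical lengths, whereas the folds of single genes do not depend on length.

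Around these 35 genes, 10 lists of 121 other genes of glucose metabolism and its control were counted, of which 102 were tested. With TGF-β1, 26 of them rose and 24 fell, together 50 of 102, beside 36% of all genes tested, and their median log2 fold change was 0.02. With library totals 13 rose and 31 fell.

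Of 7 other glucose transporters, 1 fell and none rose: Slc2a4, the insulin-responsive GLUT4 of muscle and fat, was at 0.682 ± 0.37 CPM with TGF-β1 and 1.52 ± 0.18 CPM in untreated cultures (log2 fold change -1.14 ± 0.35 SE, adjusted p = 0.0126). Of 8 other glycolytic genes, 2 rose and 3 fell. Those that fell were the muscle mutase Pgam2 (-0.92 ± 0.14, adjusted p = 2.06e-05), the galactose mutarotase Galm (-0.39 ± 0.07, adjusted p = 2.41e-04) and the hexokinase Hk3 of blood cells (-1.08 ± 0.26, adjusted p = 0.00196), and the ADP-dependent glucokinase Adpgk was among those that rose (0.21 ± 0.05, adjusted p = 0.00449). Slc2a4 and Pgam2, like Eno3, are typical of muscle, and they fell, as did 15 cardiomyocyte markers and the muscle phosphorylase Pygm. Other genes described here as muscle forms differed. Hk2 (log2 fold change 0.56) and Aldoa (0.11) rose, and Pfkm (-0.09) and Ldha (0.09) did not pass the test. The part of cardiomyocytes in these values was not tested.

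Among 4 other lactate genes, Emb, a chaperone of monocarboxylate transporters, fell (-0.75 ± 0.25, adjusted p = 0.0204) at 1.68 ± 0.30 CPM with TGF-β1 and 2.84 ± 0.74 CPM in untreated cultures. The main chaperone Bsg was at 614 ± 28.8 CPM with TGF-β1 and 583 ± 18.8 CPM in untreated cultures and did not pass the test (0.07 ± 0.04, adjusted p = 0.141). Of 10 genes for pyruvate entry into mitochondria, the pyruvate dehydrogenase subunits Dlat (0.17 ± 0.05, adjusted p = 0.00686) and Pdhb (0.13 ± 0.04, adjusted p = 0.0166) rose, and the activating phosphatase Pdp1 fell (-0.29 ± 0.10, adjusted p = 0.0321). Of 6 genes of gluconeogenesis and the glycerol phosphate shuttle, the mitochondrial Pck2 rose (0.32 ± 0.05, adjusted p = 8.35e-06) and Gpd1l fell (-0.24 ± 0.06, adjusted p = 0.00391).

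Glycogen genes were divided, with 6 of 15 higher and 5 lower. The primer protein Gyg was at 131 ± 7.18 CPM with TGF-β1 and 194 ± 12 CPM in untreated cultures (SD, n = 4 each; -0.56 ± 0.05, adjusted p = 2.69e-09), and the phosphorylases Pygm of muscle (-1.30 ± 0.18, adjusted p = 3.43e-06) and Pygb of brain (-0.29 ± 0.04, adjusted p = 7.52e-06) fell, while the glycogen-binding Stbd1 rose (0.38 ± 0.05, adjusted p = 4.08e-06). Of 9 other pentose phosphate and ribose genes, H6pd, the dehydrogenase of the endoplasmic reticulum, fell to 61.4 ± 3.92 CPM with TGF-β1, against 94.2 ± 3.27 CPM in untreated cultures (SD, n = 4 each; -0.62 ± 0.05, adjusted p = 8.46e-10). Rpe (0.28 ± 0.07, adjusted p = 0.00268) and Dera (0.23 ± 0.08, adjusted p = 0.0198) rose.

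Of 10 hexosamine and glucose-branch genes, 4 rose and 3 fell. Both isoforms of the first hexosamine enzyme rose, Gfpt1 by 0.31 ± 0.04 (adjusted p = 5.77e-06) and Gfpt2 by 0.29 ± 0.04 (adjusted p = 1.04e-05) on the log2 scale. The sorbitol dehydrogenase Sord (-0.75 ± 0.07, adjusted p = 7.55e-09) and Ugdh, which makes UDP-glucuronate (-0.26 ± 0.04, adjusted p = 6.56e-06), fell.

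Among the regulators and the other HIF-1 targets, single genes were called in both directions, beside 17.6% of all genes higher and 18.5% lower. Their summed levels did not overlap between the groups. The regulators summed to 1256 to 1281 CPM with TGF-β1, against 1404 to 1427 CPM in untreated cultures. The other HIF-1 targets summed to 1708 to 1782 CPM with TGF-β1, against 1374 to 1432 CPM in untreated cultures, at a median log2 fold change of 0.13. Of 18 tested regulators, 3 rose and 4 fell. Hif1a was at 190 ± 7.34 CPM with TGF-β1 and 180 ± 5.18 CPM in untreated cultures and did not pass the test (0.08 ± 0.04, adjusted p = 0.14). Epas1, encoding HIF-2α, fell to 145 ± 9.24 CPM with TGF-β1, against 288 ± 10.2 CPM in untreated cultures (-0.99 ± 0.04, adjusted p = 6.71e-14). Of the HIF prolyl hydroxylases, Egln3 fell (-0.79 ± 0.06, adjusted p = 1.17e-10) and Egln1 rose (0.23 ± 0.04, adjusted p = 7.89e-05), and the arrestin Arrdc4, a target of the glucose sensor MondoA, rose (0.52 ± 0.08, adjusted p = 1.53e-05). Of 15 other HIF-1 targets, 6 rose and 4 fell: Ndrg1 (1.17 ± 0.05, adjusted p = 4.29e-14), Vegfa (0.85 ± 0.04, adjusted p = 1.44e-13) and P4ha1 (0.45 ± 0.03, adjusted p = 4.21e-10) rose most clearly, and Adm fell (-0.37 ± 0.04, adjusted p = 5.89e-07).

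**Figure D5:**
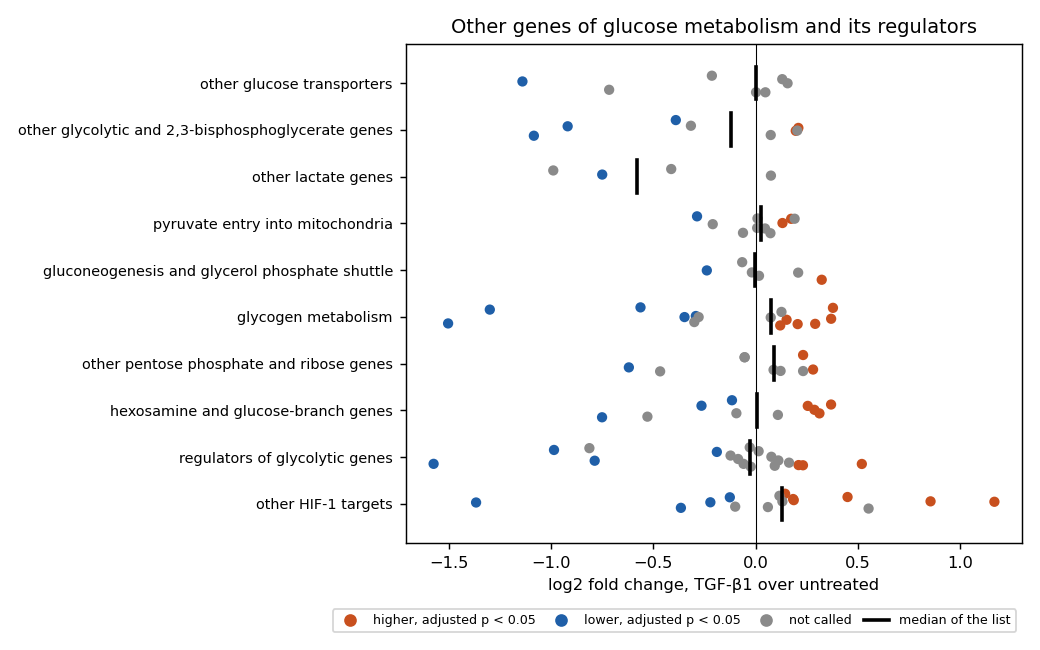
Log2 fold change (x axis, TGF-β1 over untreated) of the 102 other tested genes in 10 lists (rows), each point 1 gene, orange if called higher, blue if called lower, grey if not called, with a bar at the median of each list. Points lie on both sides of 0 in every list.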

How the data were processed

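The deposited table of counts per gene, whole numbers not normalized by the authors, was used for all tests, and the deposited table of FPKM values by the authors for levels compared between genes. Within a library, FPKM was proportional to the count over gene length. The submitters' processing notes name CASAVA, HISAT2, Subread and featureCounts without versions. No label states how strand and reads matching several places were handled. The notes name the builds GRCm38 and mm10, whereas the series design names mm39. All 35 genes overlap the gene of the same name in GRCm39 at the coordinates in the file, so these are read as GRCm39.

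Libraries were grouped by their labels. Genes were filtered with filterByExpr of edgeR at its defaults (minimum count 10, minimum total 15), given TMM factors and fitted with group as the only term; the quasi-likelihood test of edgeR 4.0.16 (R 4.3.3) was two-sided, with Benjamini-Hochberg adjustment over 13960 genes. Calls were made below an adjusted p of 0.05. Standard errors are the size of the log2 fold change over the root of the F statistic. Depth limits single genes: the rarest of those called, Aldoc, averaged 1.94 CPM with TGF-β1 and 3.11 CPM in untreated cultures. The biological coefficient of variation was 6.27%. Isozyme shares of FPKM were compared by exact two-sided permutation over 70 assignments, adjusted over 9 shares. Near-identical copies were found by blastn 2.17.0 of GENCODE M39 canonical transcripts against all transcripts. Promoters are from RefSeq's GRCm38.p6 table.

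Every one of the 35 genes is named. Of each list of other pathway genes, up to 4 called genes with the smallest p are named, and where none was called the tested gene of highest CPM; Bsg, Hif1a and Gm4735, Gm5559 and Eno1b were named after their values were seen. The genes and lists were chosen with earlier results of these data known. Within groups, the median chi-square per gene between libraries was above sampling noise in all pairs, and none was treated as a duplicate. The fit was first tested on simulated data. Alternatives were DESeq2 1.42.0, limma 3.58.1 on log2(FPKM + 1) and log2(FPKM + 0.1), scaling by RLE, upper quartile or library total, no or a stricter count filter, a replicate block, removal of ribosomal RNA and Lars2, summed pseudogene or copy counts, canonical lengths, and each library left out.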

Additional observations from a re-analysis of the deposited data

Results flagged for a closer look

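Of 88 groups of 4 libraries examined (each of the 35 genes by CPM and each isozyme share, in either group), 2 held a library far from the other 3 by Dixon's test at its critical value for 4 samples. Chance flags about 1 in 20 groups. Slc2a3 was at 20.9 CPM in TGF-β1 library 3 and at 17.3 to 17.7 CPM in the other TGF-β1 libraries. Slc16a3 was at 33.2 CPM in untreated library 2 and at 27.8 to 28.1 CPM in the other untreated libraries. Both values lay toward the other group without reaching it, and both genes kept their direction and call when that library was left out.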

How the results depend on the processing

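The 35 genes were refitted under 20 alternatives, and 9 of the 17 called genes kept their direction and call in all of them (Slc16a1, Slc16a3, Hk2, Slc2a3, Pgam1, Pgls, Pfkp, Ldhb and Pdk3). The number called higher, 10, was 6 with upper-quartile factors, 4 with library totals and 6 with limma at either pseudocount, and 6 to 10 when single libraries were left out. The number called lower, 7, was 11 with library totals and 6 to 7 without single libraries. Library totals moved the median log2 fold change of all genes by -0.08, and Pdk2 (-0.0640) and Pfkl (-0.0262) turned negative there. Without single libraries, the log2 fold change ran from -0.0491 to 0.0123 for Hk1, from -0.124 to 0.0230 for Pdk1 and from -0.0993 to 0.0789 for Pdk2, none of them called. Replicate numbers were not shown to pair the libraries: as deviations from the group means, same-numbered libraries correlated at -0.05 to 0.06 across groups, and 1 of 4 correlated best with its own number. With the replicate block 11 genes were higher, 7 lower and 52 genes of the other lists called, against 50 without it, and Ldha was the gene that gained a call. Without single libraries the number called in the other lists was 42 to 47.

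Called isozyme shares kept their direction, but with any untreated library left out their adjusted p was 0.0514, or 0.0735 to 0.0857 for Aldoc, because fewer shares reached the smallest possible p. Over the leave-outs the difference, TGF-β1 minus untreated in percentage points, ran from 25.4 to 28.0 for Slc16a3, 8.24 to 9.19 for Hk2, 3.59 to 4.15 for Slc2a1, 1.48 to 1.71 for Ldha, -2.25 to -1.75 for Pfkp, -0.197 to -0.143 for Aldoc and -0.343 to -0.227 for Eno2, the last called only without TGF-β1 library 1. The causes of these changes were not otherwise tested. Depth limits Aldoc, Rpia, Pfkfb4, Pdk1 and Pdk4, all under 10 CPM. The Gapdh row was under 10 CPM too, but there 98.9% of the combined counts lay on copies.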
